A study of Mus musculus with 8 samples.

Results

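The 9 genes described here encode C-type lectin receptors of macrophages: Clec4a1, Clec4a2, Clec4a3, Clec4d, Clec4e, Clec4n, Clec5a, Clec7a and Clec12a. They were chosen by name, and each name was matched to 1 gene of the count table through GENCODE M21, so they make up 9 of 49315 genes. Bulk RNA-Seq of bone marrow-derived macrophages (BMDMs) gave their levels in 4 libraries with control gapmeR (replicates 2, 5, 6 and 7) and 4 with MAARS gapmeR (replicates 9, 11, 13 and 15). The cells were primary, from C57BL/6 mice, and were kept in 10 ng/ml M-CSF, the growth factor that drives marrow cells to become macrophages. GapmeRs are antisense oligonucleotides that direct RNase H to cleave a chosen RNA; here they were given at 25 nM with Lipofectamine, and the control group also received lipid and a gapmeR (negative control #1). The gapmeR against MAARS, a long noncoding RNA of macrophages that is also called Gm14461, was thus the only labelled difference between the groups, and loss of MAARS and any other action of that oligonucleotide cannot be told apart. The labels do not say whether the libraries came from separate mice or cultures, so the p-values below measure the spread between these libraries, which may be technical.

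C-type lectin receptors are surface proteins that bind sugars, glycolipids or products of dying cells through a C-type lectin-like domain. The activating members signal through an immunoreceptor tyrosine-based activation motif (ITAM), either their own or that of the partner adaptors FcR gamma chain and DAP12, and from there through the kinase Syk and the Card9, Bcl10 and Malt1 complex to cytokine genes. The inhibitory members carry an immunoreceptor tyrosine-based inhibition motif (ITIM), which recruits the phosphatases SHP-1 and SHP-2. In macrophages they are best known as sensors of fungi and mycobacteria, and several of them also recognise dead cells.

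Library totals ran from 19287279 to 20567123 counts with control gapmeR and from 20839671 to 24541205 with MAARS gapmeR, so every MAARS library was deeper than every control library. Levels are given in CPM, counts scaled to a common library size, after TMM normalization, which also corrects for a few dominant transcripts. Gm14461 (ENSMUSG00000054510) was at 12.2, 15.1, 13 and 12.2 CPM in control replicates 2, 5, 6 and 7, and at 7.71, 6.41, 7.31 and 5.85 CPM in MAARS replicates 9, 11, 13 and 15. It was lower in 4 of 4 MAARS libraries (log2 fold change -0.95, SE 0.112; adjusted p = 5.8e-05, quasi-likelihood test of edgeR, Benjamini-Hochberg adjusted over the 13051 genes tested). The defining macrophage marker Adgre1 (F4/80) was at 1296 ± 65.3 CPM in controls and 1332 ± 36.4 CPM after MAARS knockdown (SD, n = 4) and was not called. Of the other 7 macrophage markers, 5 rose and 2 fell, beside 21.3% higher and 24.0% lower over all genes tested. The log2 fold changes of the 5 were 0.74 for Cd14, 0.49 for Lyz2, 0.45 for Csf1r, 0.19 for Mertk and 0.18 for Itgam. The 2 that fell were Fcgr1 (-2.09) and Cd68 (-0.34). The 7 lymphocyte markers summed to at most 0.54 CPM in any library, with Cd3g at 0. In bulk RNA, fewer cells of a type and less RNA per cell cannot be told apart.

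All 9 receptor genes passed the filter on low counts. After MAARS knockdown 7 of them were lower and 0 higher (adjusted p under 0.05 in edgeR), and Clec4a2 and Clec7a did not pass the test. The count of 0 was the same at an unadjusted p under 0.05, in DESeq2 and in limma-voom. Over all 13051 genes tested, 24.0% were called lower, 21.3% higher and 45.4% in either direction. The median log2 fold change was -0.47 over the 9 receptors and 0.008 over all genes tested. The changes were uneven in size. Clec4e and Clec5a had a log2 fold change of -1 or below, a size at which 3.14% of all genes tested were called lower, whereas Clec4d fell by 0.22 on the log2 scale. In 5 receptors (Clec4d, Clec4e, Clec4n, Clec5a and Clec12a) every MAARS library lay below every control library, an ordering found in 22.8% of all genes tested. Summed over the 9 receptors, the libraries held 1657 to 1896 CPM with control gapmeR and 1322 to 1493 CPM with MAARS gapmeR.

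**Figure D1:**
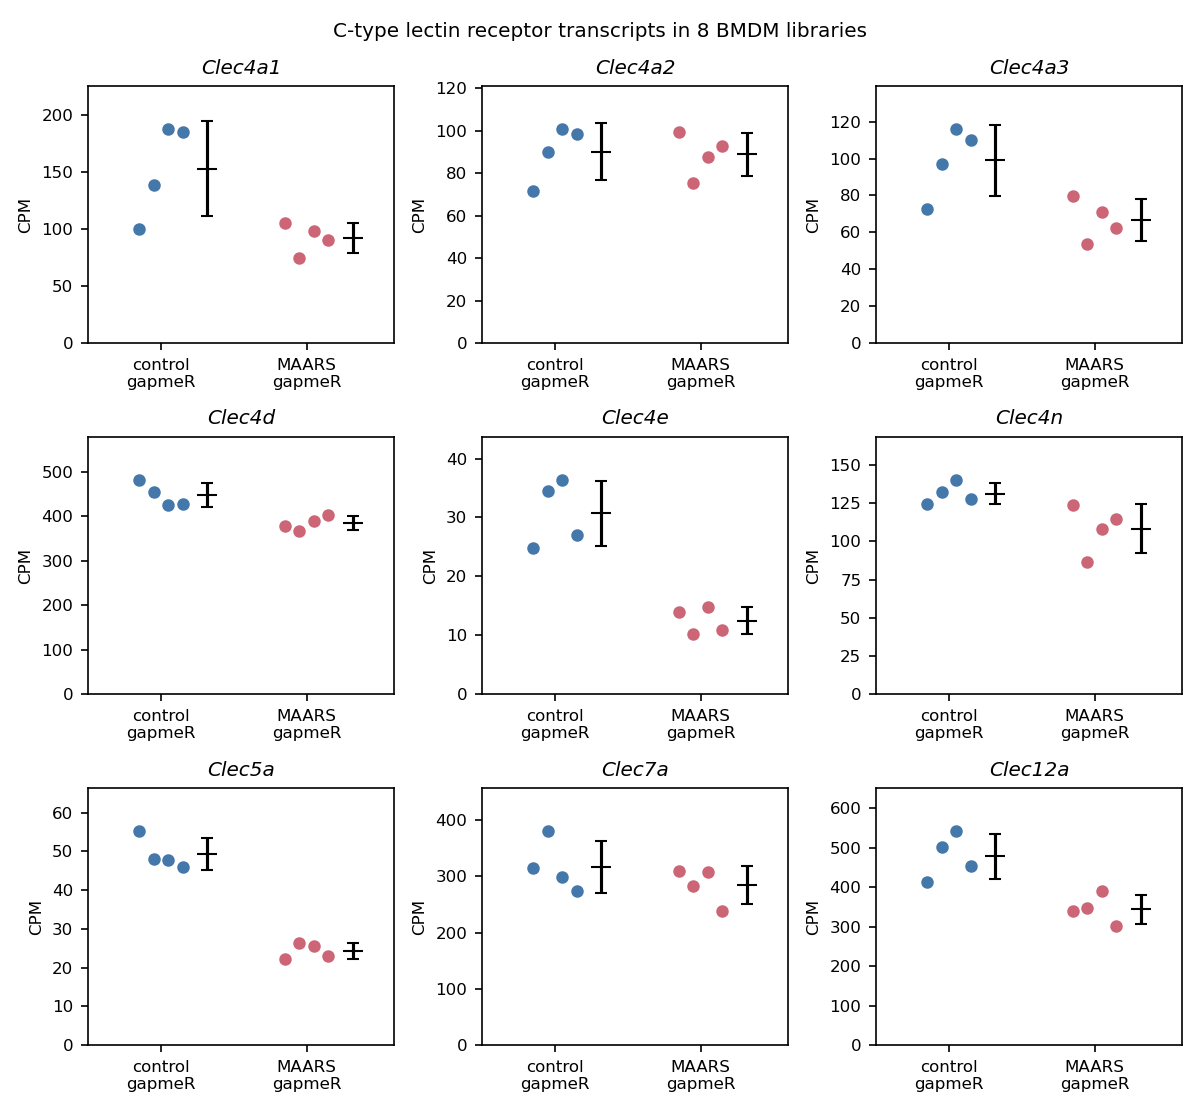
Level (CPM, y axis from 0) of each of the 9 receptors in the 4 control gapmeR libraries (blue) and the 4 MAARS gapmeR libraries (red), with the mean and SD of each group in black. The groups do not overlap for Clec4d, Clec4e, Clec4n, Clec5a and Clec12a, and they overlap for Clec4a1, Clec4a2, Clec4a3 and Clec7a.

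All 9 genes lie on mouse chromosome 6 (GRCm38), in 3 places. Clec5a stands alone at chr6:40574894-40585821 on the minus strand. The Dectin-2 cluster spans chr6:122921848-123289870 and holds, in order, Clec4a1, Clec4a3, Clec4a2, Clec4n, Clec4d and Clec4e, all on the plus strand but Clec4e. The Dectin-1 cluster begins at Clec12a (chr6:129342691-129365303, plus strand) and includes Clec7a (chr6:129461591-129472779, minus strand), which GENCODE M21 lists as a polymorphic pseudogene. No exon of the 9 genes overlaps an exon of another gene in that annotation. In 8 of 9 genes no stretch of 100 bases, the read length, recurs in another gene; in Clec4a2, 2.14% of such stretches are shared with its neighbour Clec4a4, so a small part of the Clec4a2 count is uncertain.

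The sequences upstream of 4 of these genes are printed because they carry the contrasts of the results: Clec4e and Clec5a had the largest fold changes, and Clec4a1 and Clec4a2 are paralogs in the same cluster that differed in response. Each is the 250 bases before the RefSeq transcription start (GRCm38.p6), read 5′ to 3′ on the strand of the gene, with letters that match a searched motif in capitals. The positions are chr6:123289872-123290121 (minus) for Clec4e, chr6:40585806-40586055 (minus) for Clec5a, chr6:122921598-122921847 (plus) for Clec4a1 and chr6:123122440-123122689 (plus) for Clec4a2, whose RefSeq start lies inside the longer GENCODE gene.
Clec4e: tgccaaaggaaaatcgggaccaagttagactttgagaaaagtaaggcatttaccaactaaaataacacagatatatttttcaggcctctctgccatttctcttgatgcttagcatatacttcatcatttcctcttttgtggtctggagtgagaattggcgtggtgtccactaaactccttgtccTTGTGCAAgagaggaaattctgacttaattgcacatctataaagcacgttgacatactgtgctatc
Clec5a: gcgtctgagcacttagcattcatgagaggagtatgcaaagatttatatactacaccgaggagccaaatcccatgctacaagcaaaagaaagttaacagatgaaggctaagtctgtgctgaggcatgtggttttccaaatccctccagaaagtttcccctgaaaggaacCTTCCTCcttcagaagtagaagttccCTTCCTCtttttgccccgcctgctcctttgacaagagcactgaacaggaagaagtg
Clec4a1: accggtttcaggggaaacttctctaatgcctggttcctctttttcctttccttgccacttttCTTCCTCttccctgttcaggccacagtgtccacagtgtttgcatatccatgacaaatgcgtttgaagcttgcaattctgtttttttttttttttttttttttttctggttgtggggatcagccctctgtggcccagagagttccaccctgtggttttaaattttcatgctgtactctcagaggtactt
Clec4a2: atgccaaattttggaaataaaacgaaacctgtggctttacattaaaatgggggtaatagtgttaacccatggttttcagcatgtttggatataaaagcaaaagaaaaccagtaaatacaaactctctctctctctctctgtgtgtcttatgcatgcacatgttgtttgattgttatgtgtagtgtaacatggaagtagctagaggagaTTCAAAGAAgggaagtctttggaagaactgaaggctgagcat
The capitals mark a C/EBP motif (TTGCNNAA, read on the opposite strand) in Clec4e, 2 copies of a PU.1 core (GAGGAAG, read on the opposite strand) in Clec5a and 1 in Clec4a1, and a gamma-activated site (TTCNNNGAA) in Clec4a2.

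RefSeq windows of 300 bases, from 250 before to 50 after the start, were at hand for 8 of the 9 genes (10 windows, none for Clec4n), and both strands were searched. PU.1 is the factor that macrophages require for their identity. Its core GAGGAAG was found in 4 of the 8 genes: Clec4a1 (188 bases upstream of the start), Clec4d (241), Clec5a (82 and 56) and Clec12a (61). Among all 32851 windows of that length, 13.6% hold it. The receptors are counted here by gene and the background by window. Clec4a3 and Clec7a account for the additional windows, and none of theirs holds a searched motif. The C/EBP motif was found in Clec4e (66 bases upstream) and Clec12a (140) and in 10.8% of all windows. The gamma-activated site was found in Clec4a2 (42 bases upstream) and in 8.30% of all windows, and the interferon-stimulated response element at the start of Clec4d and in 3.44% of all windows. The NF-kappaB motif was in 0 of the 8 genes and in 1.63% of all windows. The PU.1 core and the C/EBP motif share no letters in Clec12a, where both occur. The Clec12a window (chr6:129349994-129350293) lies inside the longer GENCODE gene, so both motifs are upstream of the RefSeq start but not of that gene. All the motifs given here are matches of letters in a short window, and binding of a factor was not measured.

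Clec4e, Clec4d and Clec4n, which belong to the Dectin-2 cluster and signal through the FcR gamma chain, fell after MAARS knockdown, but to different degrees. Clec4e encodes Mincle, the receptor for mycobacterial trehalose dimycolate and for a nuclear protein released by dying cells. It was at 24.9, 34.4, 36.4 and 27.0 CPM in control replicates 2, 5, 6 and 7, and at 14.0, 10.2, 14.8 and 10.9 CPM in MAARS replicates 9, 11, 13 and 15. The lowest control library was well above the highest MAARS library. Clec4e fell from 30.7 ± 5.59 to 12.5 ± 2.25 CPM (SD, n = 4), the largest change among the 9 receptors (log2 fold change -1.30, SE 0.147, 95% interval -1.63 to -0.98; adjusted p = 4.16e-05, edgeR, Benjamini-Hochberg adjusted).

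Clec4d encodes MCL, also called Dectin-3, which pairs with Mincle at the cell surface and lies next to it on the chromosome. Its level was 481.6, 455.2, 425.7 and 427.1 CPM in control replicates 2, 5, 6 and 7, and 378.2, 366.9, 388.3 and 403.3 CPM in MAARS replicates 9, 11, 13 and 15. The groups were close but did not overlap, with little spread inside either. Clec4d fell from 447.4 ± 26.5 to 384.2 ± 15.5 CPM (log2 fold change -0.22, SE 0.0530; adjusted p = 0.00578, edgeR, Benjamini-Hochberg adjusted).

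Clec4n encodes Dectin-2, the receptor for fungal mannans that gives the cluster its name. Control replicates 2, 5, 6 and 7 held 124.6, 132.5, 140.3 and 127.6 CPM of Clec4n, and MAARS replicates 9, 11, 13 and 15 held 123.7, 86.3, 108.4 and 114.8 CPM. The highest MAARS library lay just under the lowest control library, and MAARS replicate 11 stood lowest. Clec4n fell from 131.3 ± 6.85 to 108.3 ± 16.0 CPM (log2 fold change -0.28, SE 0.0922; adjusted p = 0.0288, edgeR, Benjamini-Hochberg adjusted). The call was lost with upper-quartile factors (log2 fold change -0.215, adjusted p = 0.0731 in edgeR). It was also lost in edgeR without control replicate 5 (-0.28, adjusted p = 0.0555), control replicate 6 (-0.25, adjusted p = 0.0751) or MAARS replicate 13 (-0.28, adjusted p = 0.0568), and without MAARS replicate 11 the call held at a smaller change (-0.18, adjusted p = 0.0379).

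The difference between their responses was tested within libraries, as the log2 ratio of the CPM values of a pair (0.5 CPM added to each). Over the 9 receptors 8 such pairs were tested, among them paralogs of the Dectin-2 cluster, Clec7a with Clec12a, which have opposed signalling roles, and the activating receptors Clec5a and Clec7a, each by two-sided exact permutation with all 70 assignments of the group labels. The smallest p this design allows is 0.0286, which is 0.0381 after adjustment over the 8 pairs for those that reached it, and 6 of 8 pairs did. How often the ratios of other gene pairs separate was not computed, so that count is a description. Among single genes tested, 22.8% lay wholly lower and 19.3% wholly higher after MAARS knockdown. The ratio of Clec4d to Clec4e rose by 1.05 (log2) from 3.86 ± 0.312 to 4.91 ± 0.252 (exact permutation p = 0.0286, adjusted p = 0.0381), and the ratio of Clec4e to Clec4n fell by 0.98 (exact permutation p = 0.0286, adjusted p = 0.0381). The ratio of Clec4d to Clec4n was 1.77 ± 0.143 in controls and 1.83 ± 0.194 after MAARS knockdown, a difference of 0.07 that did not pass the test (exact permutation p = 0.571, n = 4 per group).

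**Figure D2:**
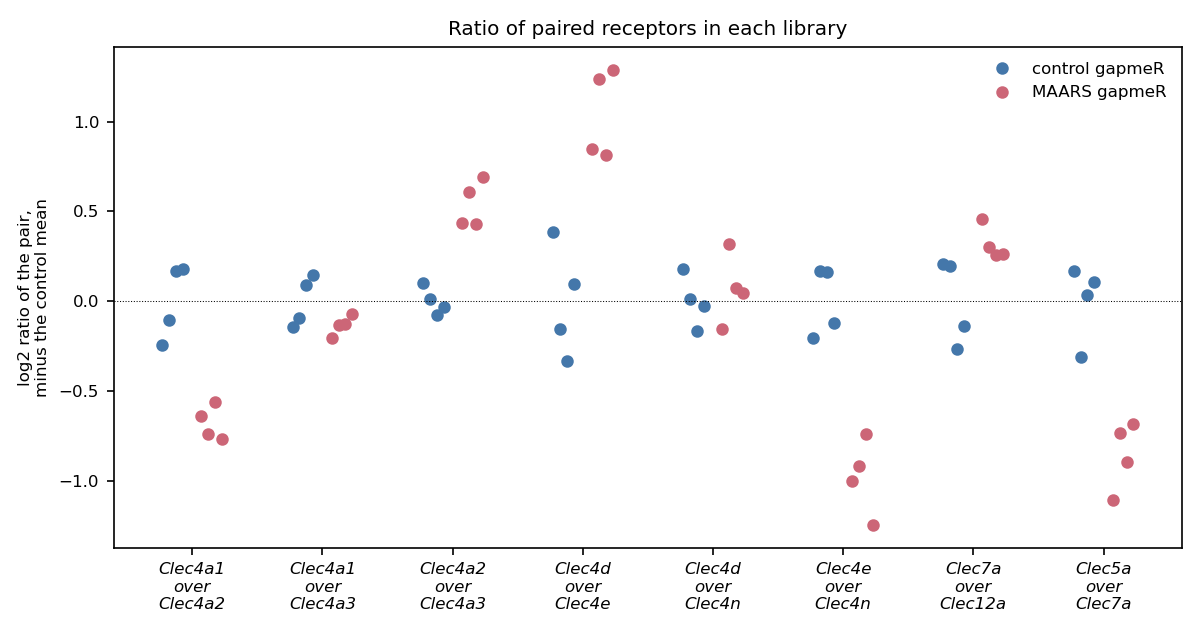
Log2 ratio of CPM of 8 receptor pairs in each library (y axis, control mean subtracted for each pair), with control gapmeR libraries in blue and MAARS gapmeR libraries in red. The groups are apart in 6 pairs and overlap for Clec4a1 over Clec4a3 and for Clec4d over Clec4n. How often the ratios of other gene pairs separate was not computed.

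The DCIR group at the other end of the cluster split. Clec4a2 encodes DCIR, an inhibitory receptor with an ITIM in its cytoplasmic tail, and Clec4a1 and Clec4a3 encode close relatives whose tails lack that motif. Clec4a2 was at 71.6, 89.9, 100.9 and 98.5 CPM in control replicates 2, 5, 6 and 7, and at 99.4, 75.4, 87.8 and 92.8 CPM in MAARS replicates 9, 11, 13 and 15. The groups overlapped throughout. The means were 90.2 ± 13.3 and 88.8 ± 10.2 CPM, and the 95% interval of the log2 fold change, from -0.26 to 0.21 around -0.02, includes no change (adjusted p = 0.879, edgeR, Benjamini-Hochberg adjusted).

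Clec4a1 was at 100.5, 138.8, 188.2 and 185.2 CPM in control replicates 2, 5, 6 and 7, and at 105.6, 74.9, 98.8 and 90.5 CPM in MAARS replicates 9, 11, 13 and 15. Control replicate 2 was the low library of its group and lay below MAARS replicate 9, so the groups overlapped by that library. Clec4a1 fell from 153.2 ± 41.8 to 92.4 ± 13.2 CPM (log2 fold change -0.73, SE 0.175, 95% interval -1.11 to -0.35; adjusted p = 0.0056, edgeR, Benjamini-Hochberg adjusted). The exact permutation test on single libraries gave p = 0.0571 (n = 4 per group). Leaving out control replicate 2 removed the overlap, so p fell to 0.0286, the smallest value possible, by that choice of library. Leaving out any other library did not change the outcome.

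Clec4a3 had the same shape. Its level was 72.7, 97.1, 116.1 and 109.9 CPM in control replicates 2, 5, 6 and 7, and 79.9, 53.8, 70.8 and 62.4 CPM in MAARS replicates 9, 11, 13 and 15. Again control replicate 2 was the lowest control and MAARS replicate 9 the highest MAARS library. Clec4a3 fell from 98.9 ± 19.2 to 66.7 ± 11.2 CPM (log2 fold change -0.57, SE 0.144; adjusted p = 0.00762, edgeR, Benjamini-Hochberg adjusted), with an exact permutation p of 0.0571. Here too, leaving out control replicate 2 removed the overlap and so gave the smallest possible permutation p, 0.0286. Without any other library the outcome did not change.

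The paralogs were tested against each other in the same way as the activating receptors. The log2 ratio of Clec4a1 to Clec4a2 was 0.73 ± 0.208 in controls and 0.05 ± 0.0941 after MAARS knockdown (exact permutation p = 0.0286, adjusted p = 0.0381, n = 4 per group). The ratio of Clec4a2 to Clec4a3 rose by 0.54 (exact permutation p = 0.0286, adjusted p = 0.0381). For Clec4a1 and Clec4a3 the difference of -0.13 did not pass the test (exact permutation p = 0.2, adjusted p = 0.229). Inside the groups the 3 genes moved together from library to library: after the group means were removed, Pearson's r over the 8 libraries was 0.96 for Clec4a1 with Clec4a3, 0.95 for Clec4a1 with Clec4a2 and 0.95 for Clec4a2 with Clec4a3. Libraries share depth and normalization across genes, and these correlations are a description.

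Clec5a, which lies apart from both clusters, encodes MDL-1, an activating receptor that signals through DAP12 and has been linked to the inflammatory response to dengue virus. It was at 55.3, 48.0, 47.8 and 45.9 CPM in control replicates 2, 5, 6 and 7, and at 22.2, 26.3, 25.6 and 22.9 CPM in MAARS replicates 9, 11, 13 and 15. The groups were far apart with a narrow spread in each. Clec5a fell from 49.2 ± 4.14 to 24.3 ± 2.03 CPM (log2 fold change -1.02, SE 0.0762, 95% interval -1.19 to -0.85; adjusted p = 5.27e-06, edgeR, Benjamini-Hochberg adjusted). Its ratio to Clec7a, the other activating receptor among the 9 that lies outside the Dectin-2 cluster, fell by 0.85 (log2; exact permutation p = 0.0286, adjusted p = 0.0381).

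Of the receptors described here in the Dectin-1 cluster, the inhibitory one, Clec12a, was lower and the activating one, Clec7a, did not pass the test. Clec7a encodes Dectin-1, the beta-glucan receptor that carries its own ITAM-like motif. It was at 314.1, 380.8, 297.9 and 273.3 CPM in control replicates 2, 5, 6 and 7, and at 309.2, 282.4, 308.2 and 238.0 CPM in MAARS replicates 9, 11, 13 and 15. The groups overlapped, with 3 of 4 MAARS libraries inside the control range. The means were 316.5 ± 46.0 and 284.4 ± 33.3 CPM (log2 fold change -0.15, SE 0.105, 95% interval -0.38 to 0.08; adjusted p = 0.251, edgeR, Benjamini-Hochberg adjusted). The log2 fold change was -0.06 without control replicate 5, -0.08 without MAARS replicate 15 and -0.22 without control replicate 7, and it was not called in any of these fits.

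Clec12a encodes MICL, an inhibitory receptor with an ITIM that binds uric acid crystals. Control replicates 2, 5, 6 and 7 held 412.3, 503.3, 543.1 and 455.0 CPM, and MAARS replicates 9, 11, 13 and 15 held 340.3, 346.4, 390.7 and 300.7 CPM. The highest MAARS library was under the lowest control library. Clec12a fell from 478.4 ± 56.9 to 344.5 ± 36.9 CPM (log2 fold change -0.47, SE 0.0924; adjusted p = 0.00164, edgeR, Benjamini-Hochberg adjusted). The log2 ratio of Clec7a to Clec12a rose from -0.60 ± 0.239 to -0.28 ± 0.0954 (difference 0.32; exact permutation p = 0.0286, adjusted p = 0.0381). That call was lost without MAARS replicate 9 (difference 0.27, exact permutation adjusted p = 0.19), replicate 11 (0.33, 0.19), replicate 13 (0.34, 0.114) or replicate 15 (0.34, 0.152). It was thus lost without any 1 MAARS library, although the ratios did not overlap (highest control -0.392, lowest MAARS -0.342).

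Scaled by length, so that the genes can be set side by side, Clec4d was the most abundant of the 9 transcripts with control gapmeR, at 279.8 ± 16.6 RPKM (CPM per kilobase of exon; SD, n = 4). Clec7a followed at 120.0 ± 17.5, Clec4a1 at 98.3 ± 26.8, Clec4n at 92.4 ± 4.82, Clec12a at 86.6 ± 10.3 and Clec4a3 at 74.6 ± 14.5 RPKM. Each of these 5 lay within the summed SDs of its neighbour in that order. Clec4a2 at 30.8 ± 4.55, Clec5a at 12.8 ± 1.08 and Clec4e at 6.18 ± 1.13 RPKM were each clear of the gene above. After MAARS knockdown Clec4d (240.3 RPKM) and Clec7a (107.8 RPKM) stayed first and second, Clec4n (76.3 RPKM) and Clec12a (62.3 RPKM) stood above Clec4a1 (59.3 RPKM), and Clec4e was again lowest at 2.51 ± 0.452 RPKM. With the length of the longest annotated transcript in place of all exonic bases, Clec12a moved from the fifth place to the second in controls (148.0 RPKM).

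**Figure D3:**
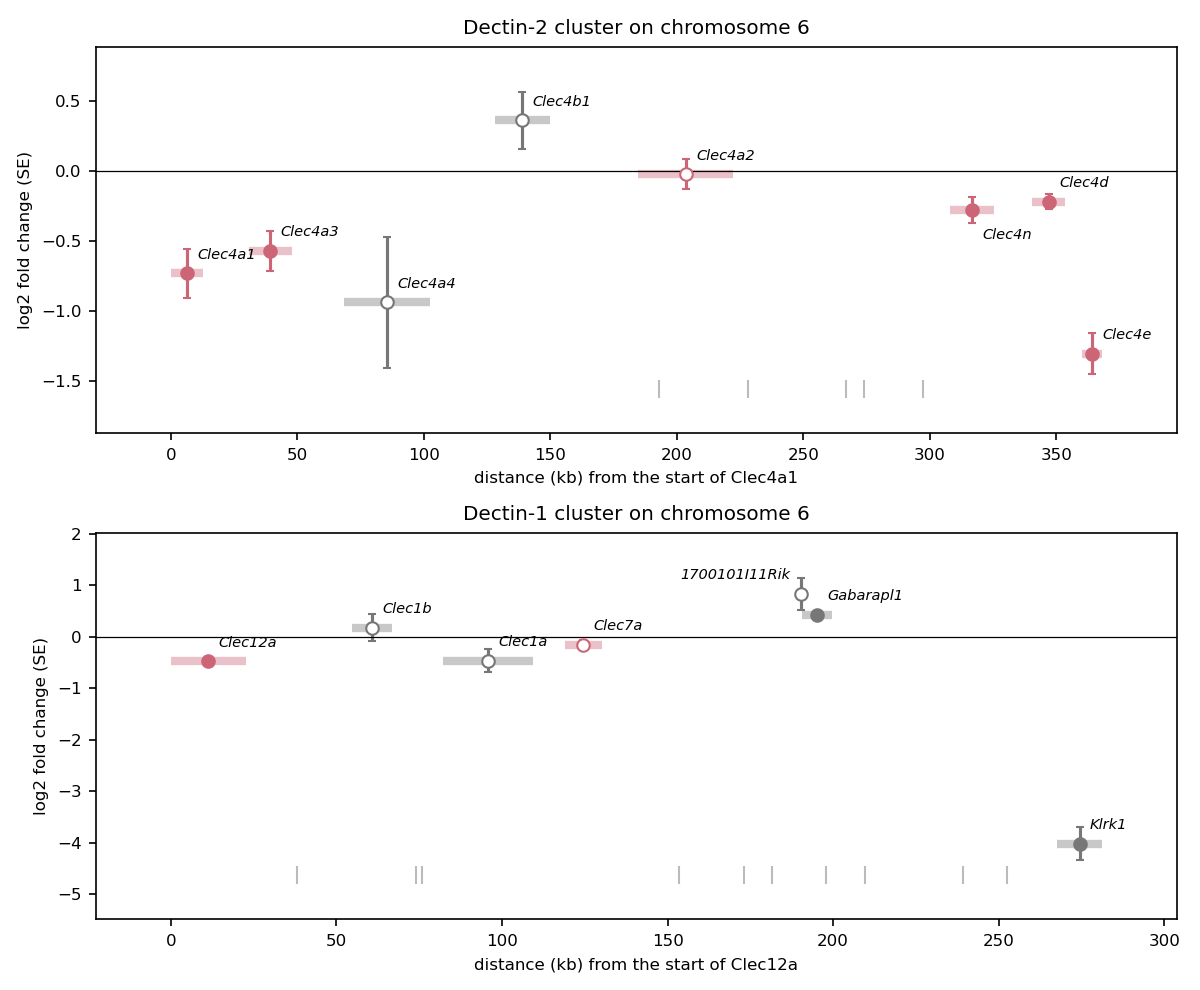
Log2 fold change (MAARS gapmeR against control gapmeR, y axis, with SE) of the genes tested in the Dectin-2 cluster (top) and the Dectin-1 cluster (bottom) against distance in kb, with the gene body as a horizontal bar. Receptors described here are red, other genes grey, filled points passed the test at an adjusted p under 0.05, and grey ticks are genes with too few counts to test.

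The lectin genes between the receptors were mostly too low to judge. In the Dectin-2 cluster 8 of 13 genes of the table were tested. Clec4a4, another DCIR relative, was at 0.94 ± 0.566 CPM in controls and 0.483 ± 0.241 CPM after MAARS knockdown (log2 fold change -0.94, adjusted p = 0.121 in edgeR, -1.20 with adjusted p = 0.0438 without control replicate 7, and -0.48 with adjusted p = 0.409 without control replicate 6). Clec4b1 was at 2.69 ± 0.648 and 3.46 ± 0.66 CPM (log2 fold change 0.36, adjusted p = 0.173 in edgeR). In the Dectin-1 cluster, taken here as far as Klrk1, 7 of 17 genes were tested. Clec1a (log2 fold change -0.46, adjusted p = 0.121) and Clec1b (0.18, adjusted p = 0.592), which flank Clec7a on the side of Clec12a, did not pass the test in edgeR. At the far end of the region Klrk1, which encodes the receptor NKG2D, fell from 19.3 ± 6.14 to 1.18 ± 0.64 CPM (log2 fold change -4.01, SE 0.326; adjusted p = 6.49e-06, edgeR, Benjamini-Hochberg adjusted).

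The nearest tested genes without a lectin domain did not follow one direction. Necap1, an endocytosis factor 32.9 kb from Clec4a1, fell by 0.26 on the log2 scale (adjusted p = 0.000474 in edgeR). On the other side of the cluster, 1015 kb beyond Clec4e, the scavenger receptor gene Cd163 rose from 6.01 ± 0.883 to 26.5 ± 6.35 CPM (log2 fold change 2.13, adjusted p = 6.49e-06 in edgeR). Beside Clec5a, Ssbp1 (90.2 kb away) differed by 0.02 on the log2 scale (adjusted p = 0.879) and Ephb6 (1020 kb away) rose by 1.06 (adjusted p = 0.0168 in edgeR, and 0.051 without control replicate 6). Beside the Dectin-1 cluster, the value for 2310001H17Rik (104 kb from Clec12a) was -0.13 (adjusted p = 0.302 in edgeR). The noncoding 1700101I11Rik, 59.2 kb from Clec7a, differed by 0.84 (adjusted p = 0.0511 in edgeR, and 0.0176 without control replicate 7). It overlaps the gene body of Gabarapl1 on the opposite strand, and without a stated strand setting reads of the pair cannot be told apart. Gabarapl1 rose from 144.7 to 195.5 CPM (log2 fold change 0.43, adjusted p = 0.000283 in edgeR), while 1700101I11Rik was at 0.595 and 1.07 CPM. The part of Gabarapl1 reads in that count was not tested.

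The adaptors and kinases that carry the receptors' signals were called in both directions, as were all genes. Of 23 listed genes, all tested, 8 fell, 4 rose and 11 did not pass the test, with a median log2 fold change of -0.12, beside 24.0% lower and 21.3% higher over all genes tested. By the naming rule, Lat2, Vav1 and Plcg1 are described. Lat2, a scaffold downstream of ITAM receptors, fell from 193.3 ± 7.42 to 126.3 ± 6.69 CPM (log2 fold change -0.61, SE 0.0497; adjusted p = 6.49e-06), and Vav1, a guanine nucleotide exchange factor, fell by 0.57 (SE 0.0470; adjusted p = 7.12e-06, both by edgeR, Benjamini-Hochberg adjusted). Plcg1, a phospholipase that makes calcium-releasing messengers, rose from 19.8 ± 1.33 to 32.8 ± 2.27 CPM (log2 fold change 0.73, adjusted p = 1.49e-05 in edgeR).

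The core of the route was named after its values were seen. Fcer1g, the FcR gamma chain with which Mincle, MCL and Dectin-2 pair, was at 628.1, 702.2, 730.7 and 689.7 CPM in control replicates 2, 5, 6 and 7, and at 504.8, 505.2, 504.2 and 510.0 CPM in MAARS replicates 9, 11, 13 and 15. The groups did not overlap, and the MAARS libraries were nearly level with each other. Fcer1g fell by 0.44 on the log2 scale (SE 0.0509; adjusted p = 4.72e-05 in edgeR). Syk, the kinase that binds the phosphorylated ITAM, rose from 373.1 ± 21.3 to 528.9 ± 19.3 CPM (log2 fold change 0.50, SE 0.0518; adjusted p = 2.17e-05 in edgeR). Tyrobp, which encodes DAP12, the adaptor of MDL-1, differed by -0.13 (adjusted p = 0.081 in edgeR) and Card9 by 0.02 (adjusted p = 0.768 in edgeR).

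On the inhibitory side, 6 phosphatases and ubiquitin-pathway regulators of these receptors were listed and tested: 3 fell, 2 rose and 1 did not pass the test (median log2 fold change -0.18). The shares over all genes tested were 24.0% lower and 21.3% higher. Ptpn6, which encodes SHP-1, the phosphatase recruited by ITIM receptors, fell from 342.0 ± 14.9 to 233.8 ± 14.2 CPM (log2 fold change -0.55, SE 0.0541; adjusted p = 1.68e-05, edgeR, Benjamini-Hochberg adjusted). Ptpn11, which encodes SHP-2, fell by 0.21 (adjusted p = 0.00205 in edgeR) and Ubash3b by 0.26 (adjusted p = 0.00921 in edgeR). The ubiquitin ligase gene Cbl rose by 0.35 (adjusted p = 0.000372 in edgeR).

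**Figure D4:**
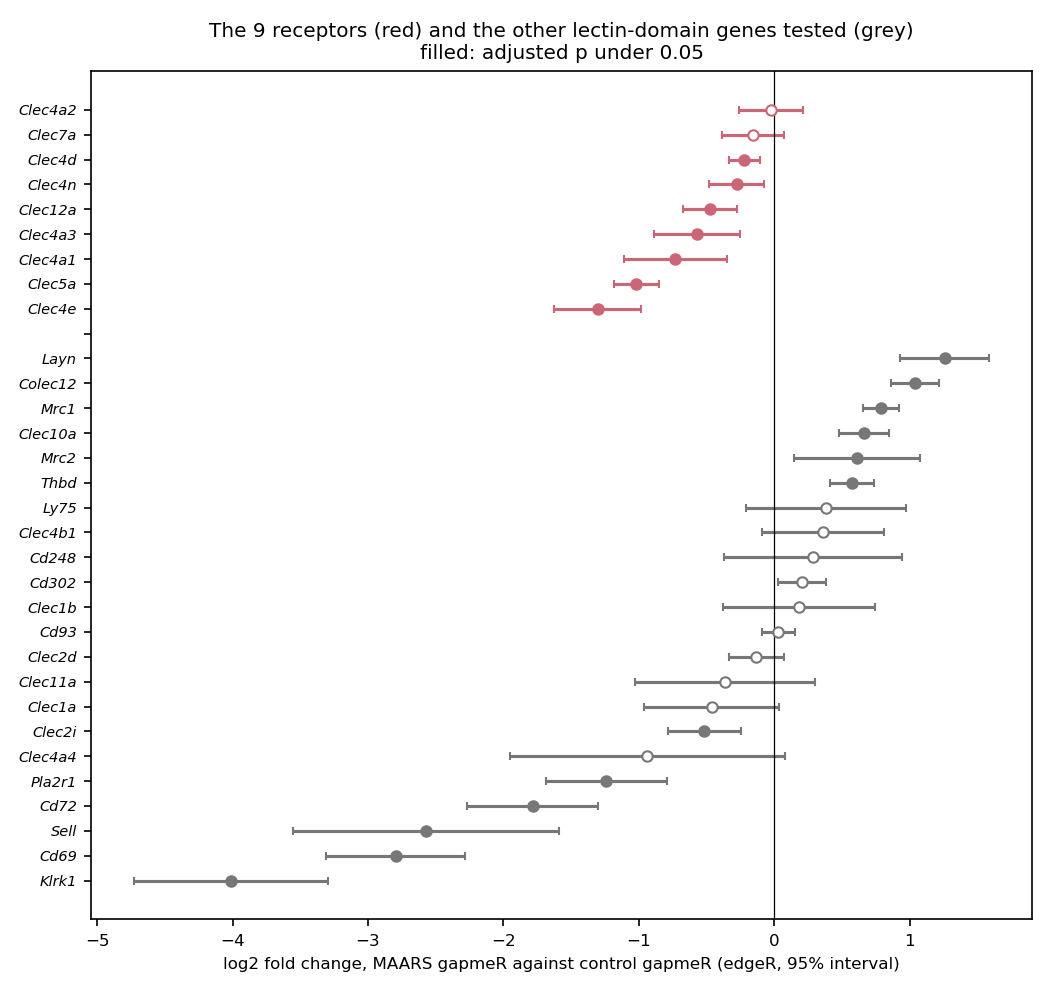
Log2 fold change (x axis, MAARS gapmeR against control gapmeR, with its 95% interval) of the 9 receptors (red) and of the 22 other lectin-domain genes tested (grey), with filled points for an adjusted p under 0.05. The receptors lie at or below 0, from Clec4e at -1.30 to Clec4a2 at -0.02, and the other lectin-domain genes run from Klrk1 at -4.01 to Layn at 1.26.

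The other lectin-domain genes were called in both directions at shares near those of all genes. Of 53 further genes with such a domain, 22 had enough counts to test and 8 were at 0 in every library. Of those 22, 6 rose, 6 fell and 10 did not pass the test, with a median log2 fold change of 0.11, beside 21.3% higher and 24.0% lower over all genes tested. Mrc1, the mannose receptor of macrophages, rose from 673.0 ± 15.2 to 1164 ± 99.3 CPM (log2 fold change 0.79, SE 0.0612; adjusted p = 5.45e-06), and Colec12, a scavenger receptor with a collagen stalk, rose by 1.04 (SE 0.0809; adjusted p = 5.69e-06, both by edgeR, Benjamini-Hochberg adjusted). The activation marker Cd69 fell from 9.60 ± 2.31 to 1.38 ± 0.447 CPM (log2 fold change -2.80, adjusted p = 7.3e-06 in edgeR). Klrk1, described above, had the largest decrease of the list.

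Genes that these receptors are known to induce were also listed. No ligand was added here, and signalling by the receptors was not tested. Of 18 genes, 10 were tested, and of these 7 fell, 1 (Egr2) rose and 2 did not pass the test (median log2 fold change -0.94). Over all genes tested, 24.0% were called lower and 21.3% higher, with a median of 0.008. The list was chosen with earlier results of these data known. Without control replicate 2 or MAARS replicate 13, 2 genes of this list were called higher. The chemokine Ccl4 was at 57.4, 54.8, 56.9 and 55.1 CPM in control replicates 2, 5, 6 and 7, and at 18.7, 23.9, 22.6 and 17.8 CPM in MAARS replicates 9, 11, 13 and 15. The groups did not overlap. Ccl4 fell by 1.43 on the log2 scale (SE 0.0863; adjusted p = 3.7e-06). The log2 fold change was -1.67 for the cytokine Il1a (SE 0.110; adjusted p = 4.79e-06), -1.17 for Tnf (adjusted p = 1.9e-05) and -0.70 for the chemokine Ccl3 (adjusted p = 4.62e-05, all by edgeR, Benjamini-Hochberg adjusted).

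Of 7 genes for PU.1-type and C/EBP factors, 6 were tested, and 2 fell, 2 rose and 2 did not pass the test (median log2 fold change -0.14). Beside them, 24.0% of all genes tested were called lower and 21.3% higher. Spi1, which encodes PU.1, fell from 344.0 ± 29.1 to 262.7 ± 6.89 CPM (log2 fold change -0.39, SE 0.0596; adjusted p = 0.000335, edgeR, Benjamini-Hochberg adjusted). Cebpb fell by 0.37 (adjusted p = 0.00839 in edgeR), while Cebpd rose by 0.36 (adjusted p = 0.0135 in edgeR) and Cebpg by 0.25 (adjusted p = 0.00325 in edgeR).

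**Figure D5:**
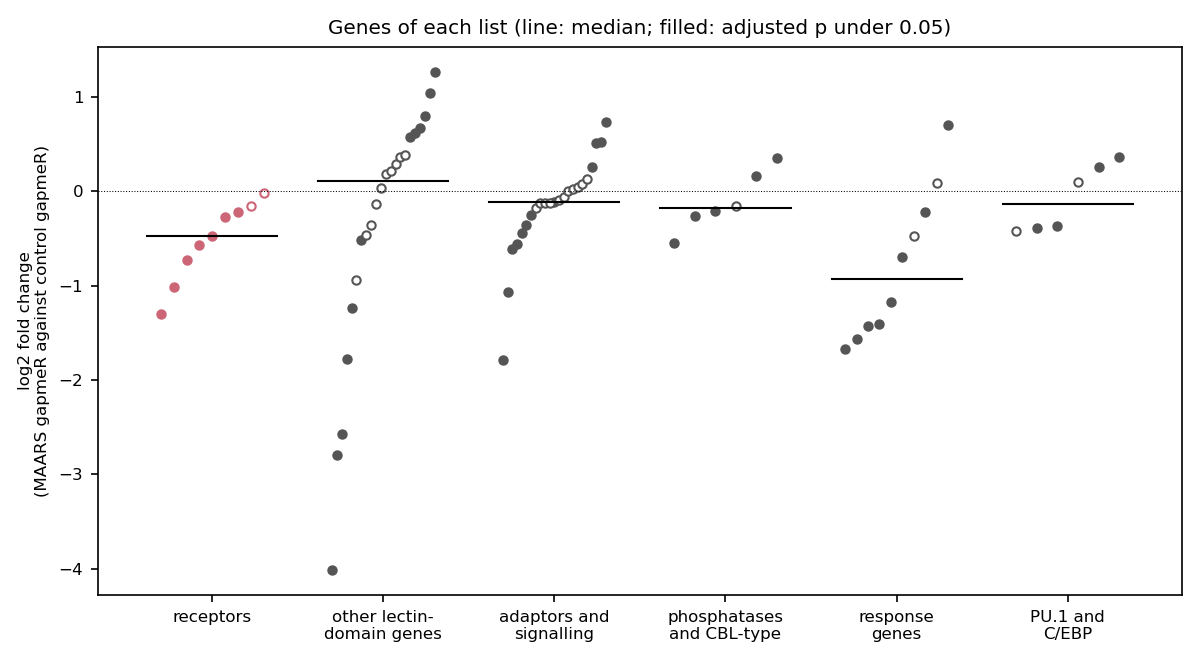
Log2 fold change (y axis, MAARS gapmeR against control gapmeR) of every gene tested in each list, with the median as a line and filled points for an adjusted p under 0.05. The medians are -0.47 for the 9 receptors, 0.11 for the other lectin-domain genes, -0.12 for adaptors and kinases, -0.18 for phosphatases and ligases, -0.94 for response genes and -0.14 for PU.1 and C/EBP genes.

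Marker lists of macrophages and of other cell types were checked, and the values stand here beside the receptor results. Beside the counts below, 24.0% of all genes tested were called lower, 21.3% higher and 45.4% in either direction. The 8 macrophage markers summed to 13840 to 17120 CPM with control gapmeR and 17010 to 20240 CPM with MAARS gapmeR. Lyz2 made up most of these sums, with means of 9402 CPM in controls and 13170 CPM after MAARS knockdown. Of the 8 markers 5 rose and 2 fell, among the latter Fcgr1, the high-affinity IgG receptor (log2 fold change -2.09, adjusted p = 7.12e-06 in edgeR). Of the 8 monocyte markers 5 fell, among them Ly6c2 (log2 fold change -1.675, adjusted p = 0.00352 in edgeR), and 1 (F13a1) rose, with sums of 36.4 to 79.3 CPM and 41.1 to 49.2 CPM. The 10 neutrophil markers summed to 102.2 to 300.6 CPM in controls and 105.7 to 168.9 CPM after MAARS knockdown; none of the 8 tested was called, and the defining genes Ly6g and Cxcr2 had at most 20 counts in any library. The 9 dendritic cell markers summed to 1.84 to 3.95 CPM and 1.69 to 2.13 CPM, with 0 of the 1 tested gene called, and the 7 stromal markers to 459.1 to 1047 CPM and 718.8 to 1232 CPM, with 0 of 7 called. In the neutrophil, dendritic cell and stromal lists no gene was called at an unadjusted p under 0.05, in DESeq2 or in limma-voom either. The part of macrophage, monocyte, neutrophil and stromal RNA in the receptor results was not tested.

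For each receptor the tested gene with the most similar profile over the 8 libraries (highest Pearson's r of log2 CPM, which follows both the groups and the spread inside them) is given as a description. Clec4a1 and Clec4a3 had the same partner, Sertad3 (r = 0.99 and 0.991). Clec12a was nearest to Cybb, which encodes the catalytic subunit of the phagocyte NADPH oxidase (r = 0.991). Clec4e was nearest to Sh3glb1 (r = 0.998), Clec5a to Snrpc (r = 0.998), Clec4d to Trappc4 (r = 0.982), Clec4a2 to Gpr146 (r = 0.967), Clec4n to Pcdhga1 (r = 0.963) and Clec7a to Swap70 (r = 0.947). A high r does not mean a change of equal size. The log2 fold change was -0.27 for Sh3glb1 (Clec4e -1.30) and -0.33 for Snrpc (Clec5a -1.02), but -0.45 for Cybb (Clec12a -0.47). Pcdhga1 was low, at 1.45 CPM in controls and 1.02 CPM after MAARS knockdown, and was not called. Each r is the highest among all genes tested over only 8 libraries, so a high value follows in part from that choice. Shared regulation was not tested.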

How the data were processed

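RNA-Seq counts of 8 ribodepleted BMDM libraries were used, 4 per group. The authors trimmed the paired reads (Trimmomatic 0.36), aligned them with STAR 2.5.2b to GRCm38 with Ensembl transcripts and deposited raw read counts per gene from featureCounts (Subread 1.5.2). The strand setting and the treatment of multi-mapping reads are not given in the sources used here, and both can move counts between overlapping or near-identical genes. Genes were named with GENCODE M21 (99.3% found). Genes were filtered with filterByExpr (minimum count 10, minimum total 15), normalized by TMM and tested by quasi-likelihood in edgeR 4.0.16 (glmQLFTest, R 4.3.3), with Benjamini-Hochberg adjustment over all 13051 genes tested. The pipeline was tested on simulated data. Single values and pair ratios were compared by exact permutation. Depth of 19287279 to 24541205 counts set the precision, and the biological coefficient of variation was 8.51%. Alternatives were RLE and upper-quartile factors, DESeq2 1.42.0, limma 3.58.1 (voom), no filter, a minimum mean of 10 counts, a robust prior, 1 surrogate variable (sva 3.50.0), 2 CPM added, transcript length and each library left out. The receptors and all lists were chosen with earlier results of these data known. Named genes were the 9 receptors, Gm14461, the 4 genes of smallest p per pathway list, lectin genes tested in the clusters, nearest tested neighbours, the most similar gene and markers whose totals differed; exceptions are marked, and 1 gene that the rule names is not reported here. Gabarapl1, Egr2, Layn and the markers named by direction were added after their values were seen.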

Additional observations from a re-analysis of the deposited data

How the results depend on the processing

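The 9 receptors kept their direction of call in 8 alternative settings, except that Clec4n lost its call with upper-quartile factors (log2 fold change -0.215, adjusted p = 0.0731 in edgeR). Upper-quartile factors also moved the share of called genes that were higher from 47.0% to 60.4% (3622 higher, 2379 lower), with a median log2 fold change of 0.07 over all genes; 6 receptors were then called lower and 0 higher. When a log2 fold change of -1 or below was also required, 2 receptors were called lower. With each library left out in turn, the number of receptors called lower ran from 6 to 7, the log2 fold change of Clec4n from -0.35 to -0.18, the difference between Clec7a and Clec12a from 0.23 to 0.39, and the number of response genes called higher from 1 to 2. The mean difference in log2 CPM in the exact permutation test ran from -0.88 to -0.58 for Clec4a1, -0.70 to -0.46 for Clec4a3, -0.36 to -0.18 for Clec4n and -0.54 to -0.41 for Clec12a. The permutation p for Clec4n was 0.0571 without any 1 of the 4 control replicates, and for Clec12a without control replicate 6 or MAARS replicate 9, 11 or 15 (smallest possible 0.0286). Leaving out a library cannot make groups that are apart overlap, so Clec4n and Clec12a stayed apart in these permutation tests. A p of 0.0571 there means that another split of the remaining libraries gave a mean difference at least as large. What else lay behind the lost calls was not tested, and each comparison with a library left out also held fewer libraries. The noncoding 1700101I11Rik was called with upper-quartile factors (0.90), limma-voom (0.91) and 1 surrogate variable (0.87). No paired analysis was possible because the groups share no replicate number. Depth limits the judgement of Clec4a4 and the lectin genes under about 1 CPM.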
